A study of Mus musculus with 8 samples.

Results

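The genes described here handle iron in macrophages. They are Tfrc, Slc11a2 and Slc11a1 for uptake and transport, Fth1 and Ftl1 for storage, Slc40a1 for export, Ireb2 for regulation and Lcn2 for capture of bacterial iron carriers. The 8 genes were chosen by name, with earlier results of these data known, and matched to Ensembl identifiers. Each count table held 54532 genes, and all 8 had enough counts to be among the 14591 genes tested. RNA-Seq of polyadenylated RNA was performed in bone marrow-derived macrophages (BMDMs). These were cultured from the marrow of mice of 6 to 8 weeks with supernatant of L929 cells, a fibroblast line that secretes the macrophage growth factor. Wild-type (WT) BMDMs carried no Trex1 deletion and received DMSO, the solvent of the antagonists. The other 3 groups came from Trex1-/- mice, which lack a DNA exonuclease that removes DNA from the cytosol. They received DMSO (Trex1-KO), the STING antagonist H151 at 500 nM (Trex1-KO+H151) or the STING antagonist SN-011 (Trex1-KO+SN-011), each for 12 h. The labels give no dose of SN-011, and the study's methods give the same concentration as for H151. STING is the adaptor through which the DNA sensor cGAS induces interferon. No WT cells with an antagonist were analysed here, so that an effect of either compound that needs no active STING cannot be told apart from inhibition of STING. Each group held 2 libraries, which the study describes as independent experiments. Whether they came from separate animals is not given in the sources used here, and p-values measure the spread between these libraries.

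Macrophages take up iron bound to transferrin through the transferrin receptor, and they gain far more by digesting old red cells. Iron that is not used is stored inside shells of ferritin, built from heavy and light chains, or leaves the cell through ferroportin, the only known exporter of free iron. When iron is scarce, the iron regulatory proteins bind a short RNA hairpin, the iron-responsive element (IRE), which blocks translation when it lies ahead of the coding sequence and protects the mRNA from decay when it lies behind it. Infection and inflammation are known to shift macrophages towards holding iron back from microbes.

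The IREs are printed because they tie 5 of the 8 genes to this control at the level of the mRNA, and because an element ahead of the coding sequence acts on translation, which mRNA counts do not measure. Complete coding transcripts of the reference were searched for an unpaired C, a paired upper stem of 5 bases (G-T pairs allowed) and the loop CAGTGN, where the last base was not G. Capitals mark the loop, and the letters are those of the mouse genome (GRCm38) in the direction of the gene. Fth1 held its match at chr19:9982733-9982759 (+ strand), Ftl1 at chr7:45459780-45459806 (- strand) and Slc40a1 at chr1:45925466-45925492 (- strand), each in the 5′ untranslated region.
Fth1: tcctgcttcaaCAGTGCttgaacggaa
Ftl1: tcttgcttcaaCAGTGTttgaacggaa
Slc40a1: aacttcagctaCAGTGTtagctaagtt
Tfrc held 4 matches in the 3′ untranslated region, at chr16:32631220-32631246, chr16:32631599-32631625, chr16:32631664-32631690 and chr16:32631711-32631737 (+ strand), printed in that order.
Tfrc, 5′-most: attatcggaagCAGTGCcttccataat
Tfrc, next: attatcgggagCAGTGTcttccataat
Tfrc, next after it: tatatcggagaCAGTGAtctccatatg
Tfrc, 3′-most: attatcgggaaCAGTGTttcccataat
Slc11a2 held a looser form with 1 extra unpaired base on the 3′ side of the stem, at chr15:100395153-100395180 (- strand), in the 3′ untranslated region.
Slc11a2: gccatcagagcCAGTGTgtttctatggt
The matches of Slc11a2, Ftl1 and Tfrc each lay in 1 of the 2 complete coding transcripts of their gene, and counts per gene do not separate them.

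Slc11a1, Ireb2 and Lcn2 held no such match in their untranslated regions. Across 21782 coding genes, 0.0964% held a fully paired match in the 5′ untranslated region and 0.450% in the 3′ untranslated region. The form with 1 extra base was counted apart, and 0.891% held it in either region. Of the 55 other iron and heme genes described further on, 1 held a match of either form, Epas1, which encodes an oxygen-sensing transcription factor. A match is a description of the letters, not a measured binding site.

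**Figure D1:**
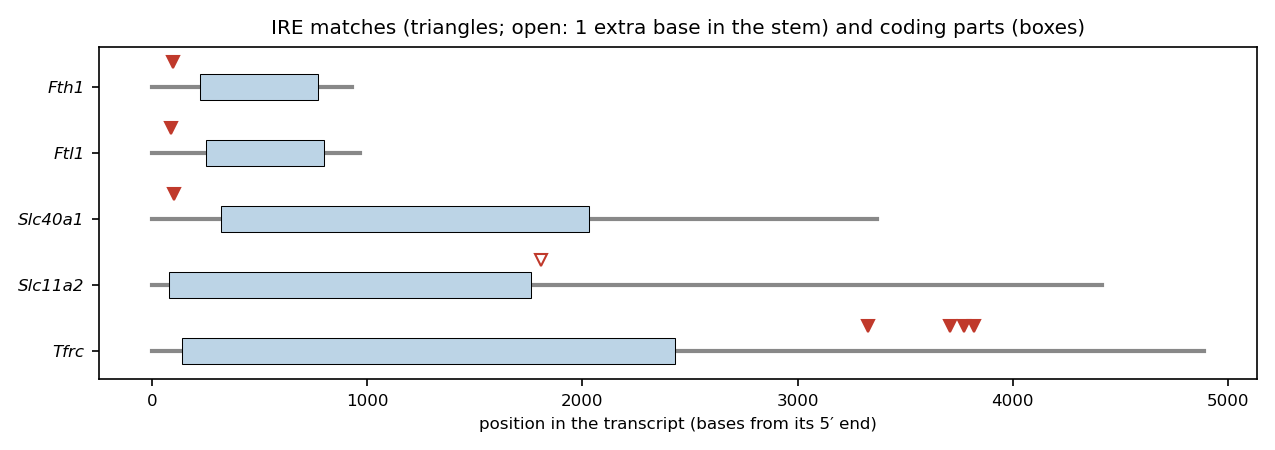
Position of the IRE matches along the mouse transcripts of 5 iron handling genes, in bases from the 5′ end. Boxes are coding sequences, lines are untranslated regions, filled triangles are fully paired matches and the open triangle has 1 extra base in the stem. The loop starts at base 99 in Fth1, 90 in Ftl1 and 102 in Slc40a1, ahead of the coding sequence, and at bases 3327, 3706, 3771 and 3818 in Tfrc, behind it.

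Values below are CPM, which are counts scaled to a common library total, with trimmed-mean (TMM) factors. A gene is said to be called, and to have risen or fallen, where its Benjamini-Hochberg adjusted p in the edgeR quasi-likelihood test was under 0.05. The libraries held between 11845470 and 17284863 counts, so that 1 count was worth between 0.0582 and 0.0849 CPM. Macrophage markers (7 genes, among them Adgre1, Csf1r and Lyz2) summed to between 29638 and 31878 CPM in every library, mostly Lyz2, and 3 of the 7 rose in Trex1-KO (Fcgr1, Cd68 and Adgre1, with log2 fold changes of 1.14, 0.44 and 0.19). Erythroid markers (8 genes) summed to between 1.06 and 2.18 CPM, with Slc4a1 at 0 counts, dendritic cell markers (4 genes) to between 0.679 and 2.13 CPM, and lymphocyte markers (4 genes) to between 0.269 and 0.923 CPM. Trex1 itself cannot be read from these counts because its exons lie inside those of a neighbouring gene, so genotypes rest on the labels. An interferon check list (6 genes) summed to 180.4 and 282 CPM in the WT libraries and to 1157 and 1272 CPM in those of Trex1-KO. With H151 it lay between 325 and 448 CPM, and with SN-011 between 419.7 and 474 CPM.

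In Trex1-KO BMDMs, transcripts of the transferrin receptor, the divalent metal transporter, the ferritin heavy chain and lipocalin 2 were higher than in WT, and the transcript of the iron exporter ferroportin was lower. Of the 8 genes 5 were called, 4 higher (Tfrc, Slc11a2, Fth1 and Lcn2) and 1 lower (Slc40a1), where 16.4% of all tested genes were called, 9.27% higher and 7.11% lower. The genes were chosen with earlier results known, so this comparison is a description. Higher genes made up 56.6% of all calls, and 37.2% with total counts in place of TMM factors, with which 3 of the 8 genes were called (Tfrc, Lcn2 and Slc40a1). The median log2 fold change of the 8 genes was 0.10, and that of all tested genes was -0.002. Apart from Lcn2, the called changes were small, between 0.68-fold and 1.25-fold. Ftl1, Slc11a1 and Ireb2 were not called. In bulk RNA, fewer cells of a type and less RNA per cell cannot be told apart, and this holds for every gene described here.

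**Figure D2:**
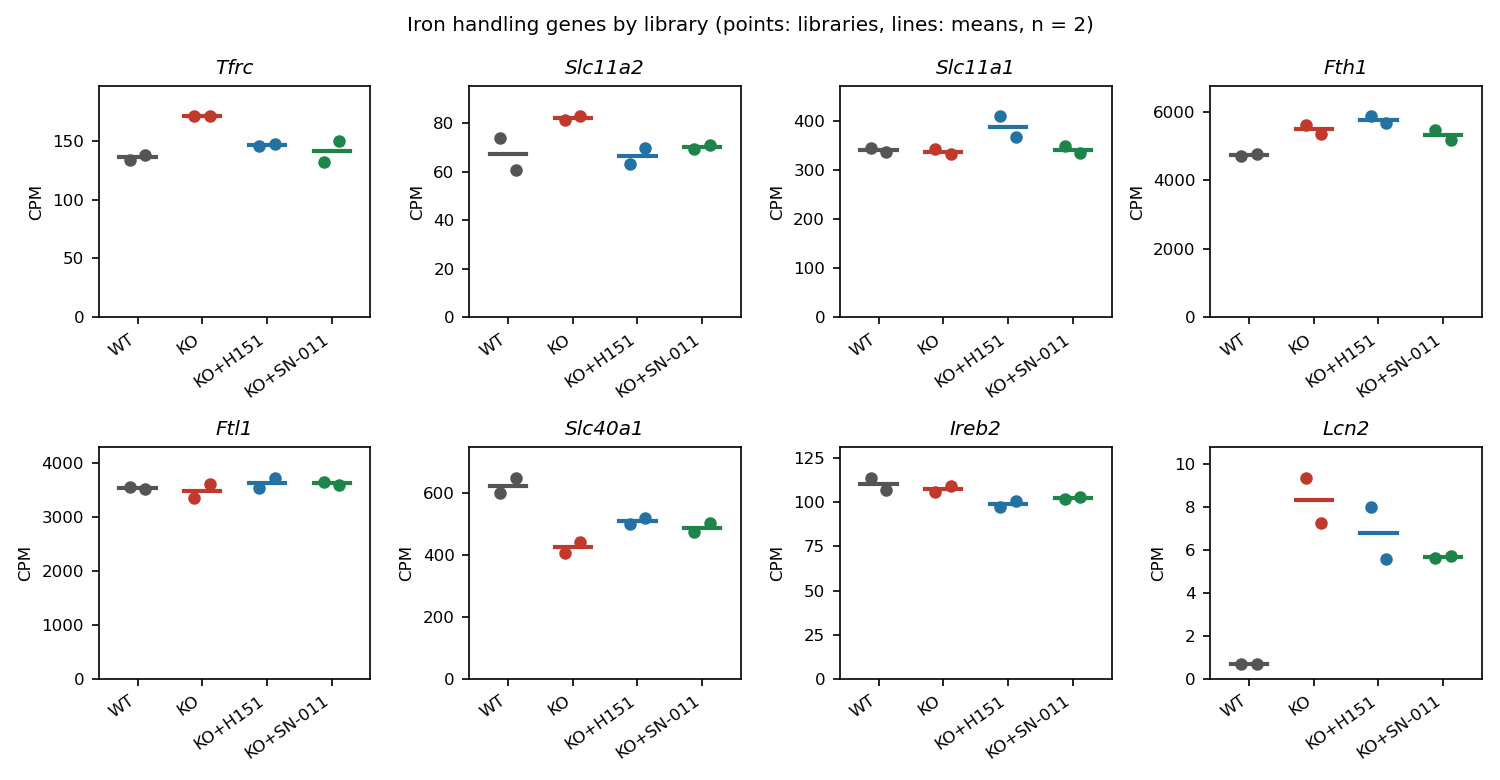
Level of each iron handling gene in CPM (vertical axes, starting at 0) in the 8 libraries of WT, Trex1-KO (KO), KO+H151 and KO+SN-011 BMDMs. Points are libraries and lines are means of 2. Slc40a1 is highest in WT and lowest in KO, Tfrc is highest in KO, and Lcn2 is under 1 CPM in WT and above 5 CPM in every other library.

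Among the uptake genes, Tfrc (ENSMUSG00000022797, chr16:32608920-32632794, + strand), the receptor that brings transferrin-bound iron into the cell, was measured at 134 and 138 CPM in WT cells, 171 and 171 CPM in Trex1-KO, 146 and 147 CPM under H151, and 132 and 150.2 CPM under SN-011. Both Trex1-KO libraries lay above the other 6. The mean rose from 136 ± 3.24 to 171 ± 0.0514 CPM on loss of Trex1 (SD, n = 2). The log2 fold change was 0.33 ± 0.07 (SE), with a 95% interval of 0.18 to 0.47 (edgeR adjusted p = 0.00399). Without WT replicate 1 the adjusted p was 0.0615, at a log2 fold change of 0.29. Since dividing cells are known to hold more transferrin receptor, proliferation genes (7 genes, among them Mki67) are given beside it. They summed to 196 and 212 CPM in WT cells, 216 and 217 CPM in Trex1-KO, 238 and 252 CPM under H151, and 235 and 249 CPM under SN-011, and 1 of the 7 was called in Trex1-KO, higher. Their part in the Tfrc result was not tested.

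Against Trex1-KO, the log2 difference of Tfrc was -0.22 with H151 (95% interval -0.37 to -0.08, edgeR adjusted p = 0.163) and -0.28 with SN-011 (-0.42 to -0.13, edgeR adjusted p = 0.0524), and neither was called. The SN-011 value lay next to the threshold, and its call depended on the processing: the adjusted p was 0.0491 with library sizes taken over all genes, 0.0497 with DESeq2, 0.0276 with the replicate number as a block and 0.00620 with no filter on low counts. Against WT, Tfrc with H151 differed by 0.10 (95% interval -0.04 to 0.25) and with SN-011 by 0.05 (-0.10 to 0.20), and neither was called (edgeR adjusted p = 0.396 and 0.746).

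Slc11a2 (ENSMUSG00000023030, chr15:100387898-100425072, - strand) encodes the divalent metal transporter DMT1, which moves iron from endosomes into the cytosol after the transferrin receptor has delivered it. It was measured at 74.1 and 60.9 CPM in WT cells, 81.3 and 83.0 CPM in Trex1-KO, 63.1 and 69.7 CPM under H151, and 69.5 and 70.9 CPM under SN-011. The Trex1-KO libraries were the highest, and the other 3 groups overlapped. It rose from 67.5 ± 9.38 to 82.2 ± 1.14 CPM (SD, n = 2), or by 0.29 ± 0.09 on the log2 scale (SE, 95% interval 0.09 to 0.48, edgeR adjusted p = 0.0427). This call depended on single libraries: without WT replicate 2, the lower of the WT libraries, the log2 fold change was 0.14 and the adjusted p 0.446. It was also lost with DESeq2 (adjusted p = 0.0888), with total counts in place of TMM factors (0.141), without Trex1-KO replicate 1 (0.123) and without replicate 2 (0.136).

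Neither antagonist gave a call for Slc11a2 against Trex1-KO. Its log2 difference was -0.30 with H151 (95% interval -0.50 to -0.11, edgeR adjusted p = 0.139) and -0.23 with SN-011 (-0.42 to -0.04, edgeR adjusted p = 0.300). With no filter on low counts, the H151 difference passed, at an adjusted p of 0.0165. Of the exonic bases of Slc11a2, 6.33% are shared with Gm5475, a gene on the opposite strand, and reads of such stretches were not counted for either gene as far as the counts show.

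Slc11a1 (ENSMUSG00000026177, chr1:74375195-74386062, + strand) encodes NRAMP1, a transporter of the phagosome that removes divalent metals from engulfed microbes. Whether the protein functions in mice of this strain was not measured, so its values stand for mRNA only. Slc11a1 was measured at 344 and 337 CPM in WT cells, 342 and 331 CPM in Trex1-KO, 409 and 366 CPM under H151, and 348 and 334 CPM under SN-011. The WT, Trex1-KO and SN-011 libraries overlapped, and both H151 libraries lay above all others. The Trex1-KO difference from WT was -0.02 on the log2 scale (95% interval -0.15 to 0.12, edgeR adjusted p = 0.910). The H151 difference from Trex1-KO was 0.20 (0.07 to 0.34) and was not called (edgeR adjusted p = 0.176). It passed, at an adjusted p of 0.0264, without H151 replicate 2, the lower of these libraries.

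Of the ferritin subunits, the heavy chain was higher in Trex1-KO and the light chain was not called. Fth1 (ENSMUSG00000024661, chr19:9980598-9985098, + strand) encodes the chain that oxidizes iron for storage. It was measured at 4704 and 4767 CPM in WT cells, 5622 and 5359 CPM in Trex1-KO, 5876 and 5672 CPM under H151, and 5472 and 5190.4 CPM under SN-011. The WT libraries were the lowest of the 8. Fth1 rose from 4736 ± 44.3 to 5491 ± 186 CPM (SD, n = 2), or by 0.21 ± 0.05 on the log2 scale (SE, 95% interval 0.12 to 0.31, edgeR adjusted p = 0.00475). The call depended on the scaling, since with total counts only the log2 fold change was 0.13 and the adjusted p 0.0855, and it was lost without Trex1-KO replicate 1 (adjusted p = 0.0644).

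Neither antagonist gave a call for Fth1 against Trex1-KO. Its log2 difference from Trex1-KO was 0.07 with H151 (95% interval -0.03 to 0.17) and -0.04 with SN-011 (-0.14 to 0.06), with edgeR adjusted p-values of 0.746 and 0.768. Against WT it was higher by 0.29 under H151 and by 0.17 under SN-011 (edgeR adjusted p = 0.000816 and 0.0248). The latter call was lost when any 1 of its 4 libraries was left out (adjusted p between 0.0834 and 0.307), with DESeq2 (0.0539), with the exact test (0.0940) and with total counts only, which gave a log2 difference of 0.11 (adjusted p = 0.166).

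Ftl1 (ENSMUSG00000050708, chr7:45457944-45459884, - strand) encodes the light chain, which helps iron form a core inside the shell. It was measured at 3551 and 3523 CPM in WT cells, 3358 and 3617 CPM in Trex1-KO, 3542 and 3732 CPM under H151, and 3645 and 3604 CPM under SN-011. The groups overlapped, except that the SN-011 libraries lay above the WT libraries, and the log2 difference of Trex1-KO from WT was -0.02 (95% interval -0.12 to 0.08, edgeR adjusted p = 0.842). The Ftl1 values are uncertain. Of its exonic bases, 34.6% are shared with Gm22133 and Gm10252, and transcripts of 9 other genes match it at 90% identity or more over at least 150 bases. The most counted of them, Ftl1-ps1, matches 910 of 968 bases at 99.56% and held 77.5 ± 5.07 CPM in WT BMDMs against 69.3 ± 20.0 CPM without Trex1 (SD, n = 2), which was not called (edgeR adjusted p = 0.632).

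Since both chains form 1 shell, the ratio of Fth1 to Ftl1 counts within each library was also computed, after the values had been seen and with no test. It was 1.32 and 1.35 in WT, 1.67 and 1.48 in Trex1-KO, 1.66 and 1.52 with H151, and 1.50 and 1.44 with SN-011. Each of the 6 Trex1-KO libraries, with or without antagonist, lay above both WT libraries. This ratio does not depend on the scaling of libraries, but it carries the uncertainty of Ftl1.

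The exporter showed the change in the opposite direction. Slc40a1 (ENSMUSG00000025993, chr1:45908068-45926523, - strand) encodes ferroportin and was measured at 598 and 649 CPM in WT cells, 407 and 441 CPM in Trex1-KO, 498 and 518 CPM under H151, and 474 and 502 CPM under SN-011. The WT libraries were the highest, the Trex1-KO libraries the lowest, and those of the antagonists lay in between and overlapped each other. Slc40a1 fell from 624 ± 35.7 to 424 ± 23.7 CPM (SD, n = 2), which was 0.680-fold of WT, a log2 fold change of -0.56 ± 0.06 (SE, 95% interval -0.69 to -0.42, edgeR adjusted p = 2.52e-05). This call held under every alternative tried, total counts and DESeq2 among them.

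With H151, Slc40a1 rose from 424 ± 23.7 to 508 ± 13.9 CPM (SD, n = 2), or by 0.26 ± 0.06 on the log2 scale (SE, 95% interval 0.13 to 0.40, edgeR adjusted p = 0.0461). It was the only 1 of the 8 genes called for H151 against Trex1-KO, where 2.23% of all tested genes were called, 0.384% higher and 1.84% lower. The call lay next to the threshold and was lost with library sizes taken over all genes (adjusted p = 0.0513), with a stricter filter (0.0529), in a fit of only the 2 groups (0.142), without Trex1-KO replicate 1 (0.333) and without H151 replicate 2 (0.126). With SN-011 the log2 difference was 0.20 (95% interval 0.07 to 0.34) and was not called (edgeR adjusted p = 0.149), but it passed with the replicate number as a block (0.0499) and with no filter on low counts (0.0198).

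With both antagonists Slc40a1 stayed below WT. Its log2 fold change against WT was -0.30 with H151 (95% interval -0.43 to -0.16, edgeR adjusted p = 0.00602) and -0.35 with SN-011 (-0.49 to -0.22, edgeR adjusted p = 0.00172). Without WT replicate 2 the adjusted p of the H151 comparison was 0.0699. The sum of the fibroblast markers moved with Slc40a1 between WT and Trex1-KO. Their sum (6 genes), in CPM, lay between 2069 and 2265 in WT, 849 and 1046 in Trex1-KO, 1090.3 and 1199.7 under H151, and 919.8 and 1106 under SN-011, and 4 of their 5 tested genes fell in Trex1-KO (Col1a1, Col1a2, Col3a1 and Pdgfra). Dcn, a defining marker, did not fall, with 1.77 and 2.58 CPM in WT and 3.09 and 2.90 CPM in Trex1-KO. Its log2 difference was 0.46 and was not called (edgeR adjusted p = 0.320). Dcn was between 1.77 and 3.43 CPM in every library, and Lum was under 1 CPM. The part of fibroblast transcripts in the Slc40a1 result was not tested.

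The ratio of Tfrc to Slc40a1 counts within each library sets an uptake gene against the exporter. It was computed after the values had been seen and carries no test. It was 0.224 and 0.213 in WT, 0.419 and 0.387 in Trex1-KO, 0.292 and 0.284 with H151, and 0.278 and 0.299 with SN-011. The Trex1-KO libraries were the highest and the WT libraries the lowest, with the antagonist libraries in between.

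Ireb2 (ENSMUSG00000032293, chr9:54863789-54912530, + strand) encodes iron regulatory protein 2, which binds IREs and is itself controlled mainly by protein decay, so that its mRNA does not report its activity. It was measured at 114 and 107 CPM in WT cells, 106 and 109 CPM in Trex1-KO, 97.5 and 100.5 CPM under H151, and 102 and 103 CPM under SN-011. WT and Trex1-KO overlapped, and the antagonist libraries lay below both. The edgeR fit called no Ireb2 difference: the log2 difference was -0.04 for Trex1-KO against WT (95% interval -0.17 to 0.09), -0.12 for H151 against Trex1-KO (-0.26 to 0.01) and -0.07 for SN-011 against Trex1-KO (-0.20 to 0.06), with edgeR adjusted p-values of 0.727, 0.598 and 0.708. For H151 against WT it was -0.16 (-0.30 to -0.03, edgeR adjusted p = 0.116), which passed with total counts in place of TMM factors (-0.22, adjusted p = 0.0310).

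Lcn2 (ENSMUSG00000026822, chr2:32384633-32388252, - strand) encodes lipocalin 2, a secreted protein that captures bacterial siderophores and is also stored in neutrophil granules. It had 9 and 10 counts in WT, 124 and 110 in Trex1-KO, 98 and 83 with H151, and 97 and 67 with SN-011. In CPM this was 0.662 and 0.678 in WT, 9.36 and 7.25 in Trex1-KO, 7.98 and 5.58 with H151, and 5.64 and 5.69 with SN-011. Every Trex1-KO library, with or without antagonist, lay far above WT, and H151 overlapped both Trex1-KO and SN-011.

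Lcn2 showed the largest difference among the 8 genes. It rose from 0.670 ± 0.0108 to 8.31 ± 1.49 CPM (SD, n = 2), which was 12.2-fold, a log2 fold change of 3.61 ± 0.30 (SE, 95% interval 2.95 to 4.27, edgeR adjusted p = 1.71e-06), and the call held under every alternative tried. It remained 9.92-fold above WT with H151 (edgeR adjusted p = 1.16e-05) and 8.35-fold above WT with SN-011 (edgeR adjusted p = 2.68e-05). Against Trex1-KO the log2 difference was -0.30 with H151 (95% interval -0.75 to 0.16, edgeR adjusted p = 0.791) and -0.55 with SN-011 (-1.01 to -0.09, edgeR adjusted p = 0.305), and neither was called. Even in Trex1-KO its level stayed low, under 10 CPM.

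Neutrophil markers moved with Lcn2. The list of 10 genes summed to 9.86 and 9.49 CPM in WT cells, 66.4 and 87.7 CPM in Trex1-KO, 83.6 and 78.9 CPM under H151, and 79.2 and 101 CPM under SN-011. All 6 tested genes of the list rose in Trex1-KO (Camp, Ngp, Ltf, S100a9, S100a8 and Retnlg, with log2 fold changes of 3.71, 3.54, 3.40, 2.89, 2.39 and 1.95). Camp had 1 and 7 counts in WT and Retnlg 3 and 11, so both passed the count filter only through the groups where they were high. For either antagonist against Trex1-KO, 0 of 6 were called by edgeR, with 0 of 6 at an unadjusted p under 0.05 and 0 called by DESeq2 or the exact test. The Retnlg call was lost without WT replicate 1 (adjusted p = 0.114) and without Trex1-KO replicate 2 (0.0825). Of the defining markers, Ly6g had 0 counts in both WT libraries, which allows up to 0.221 CPM, and was at most 0.255 CPM elsewhere, Elane had 0 counts in both as well and was at most 0.510 CPM elsewhere, and Mpo was at most 0.739 CPM in any library. Their part in the Lcn2 result was not tested.

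**Figure D3:**
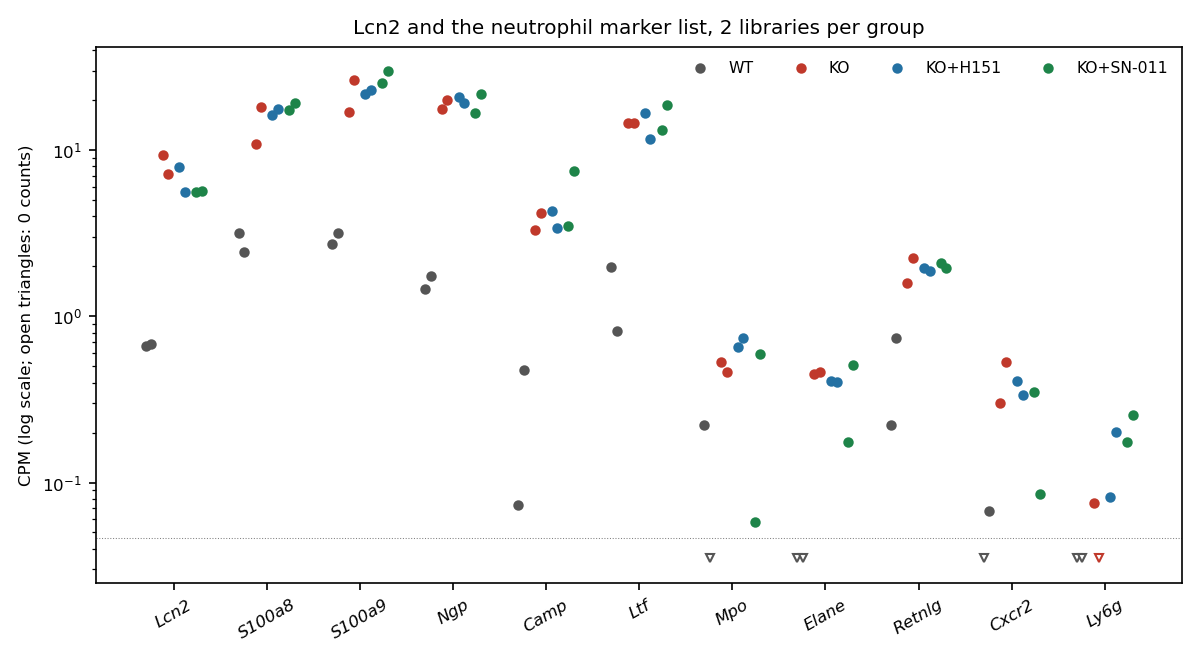
Lcn2 and the 10 neutrophil marker genes in each of the 8 libraries, in CPM on a log axis, coloured by group. Open triangles are libraries with 0 counts. For Lcn2, S100a8, S100a9, Ngp, Camp, Ltf and Retnlg the WT libraries lie below all other libraries, and the antagonist libraries lie near those of Trex1-KO.

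The Lcn2 promoter is printed because this gene moved most, to show which of the searched motifs its letters hold. RefSeq promoters (GRCm38.p6) were found for 6 of the 8 genes, Fth1 and Tfrc with a pair each. The interferon-stimulated response element (GAAA, 2 bases of any kind and GAAA again, on either strand) was in 0 of these 8 promoters and in 3.44% of all 32851. A C/EBP motif (TTGCNNAA, both strands) was in the Lcn2 promoter and in 1 of the Fth1 promoters, and in 10.8% of all promoters. Binding to it was not tested. Cebpb and Cebpd, which encode C/EBP factors, were not called in Trex1-KO against WT. Their log2 differences were -0.10 and -0.17 (edgeR adjusted p = 0.524 and 0.298). The 250 bases before the RefSeq start of Lcn2 lie at chr2:32387740-32387989 (- strand). This stretch is inside the span of the gene given above, which reaches base 32388252. The C/EBP match is in capitals and begins 216 bases before the RefSeq start.
Lcn2 promoter: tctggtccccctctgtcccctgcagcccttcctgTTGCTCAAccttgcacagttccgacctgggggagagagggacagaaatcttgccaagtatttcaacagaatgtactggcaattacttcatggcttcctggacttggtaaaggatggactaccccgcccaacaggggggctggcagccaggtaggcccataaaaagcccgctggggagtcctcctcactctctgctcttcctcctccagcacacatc

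No iron handling gene differed between the antagonists past the threshold. Against Trex1-KO, 0 of 8 genes were called for SN-011 by edgeR, with 4 at an unadjusted p under 0.05 (Tfrc, Slc40a1, Slc11a2 and Lcn2), where 2.33% of all tested genes were called, 0.11% higher and 2.22% lower. DESeq2 and the exact test each called 1 of the 8, Tfrc. The direct comparison of SN-011 with H151 called 0 of 8, with 2 at an unadjusted p under 0.05 (Fth1 and Slc11a1), where 0.158% of all tested genes were called. DESeq2 and the exact test also called 0 of 8. Its log2 differences, given as SN-011 minus H151, were -0.12 for Fth1 (95% interval -0.21 to -0.02, edgeR adjusted p = 0.513) and -0.18 for Slc11a1 (-0.32 to -0.05, edgeR adjusted p = 0.445). For Slc40a1 it was -0.06 (-0.19 to 0.08), for Tfrc -0.05 (-0.20 to 0.09) and for Lcn2 -0.25 (-0.72 to 0.23). The comparisons with Trex1-KO share the same 2 Trex1-KO libraries, and the SN-011 libraries were deposited under later records, so that a batch limited to them cannot be told apart from the treatment. Against WT, H151 gave 3 of 8 calls where 11.8% of all tested genes were called (6.79% higher and 5.04% lower), and SN-011 gave 3 of 8 where 11.7% were called (6.18% higher and 5.57% lower). In both cases these were Fth1 and Lcn2, which were higher, and Slc40a1, which was lower. With total counts in place of TMM factors, higher genes made up 41.7% in place of 57.4% of all calls for H151 against WT, and 40.3% in place of 52.6% for SN-011 against WT.

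**Figure D4:**
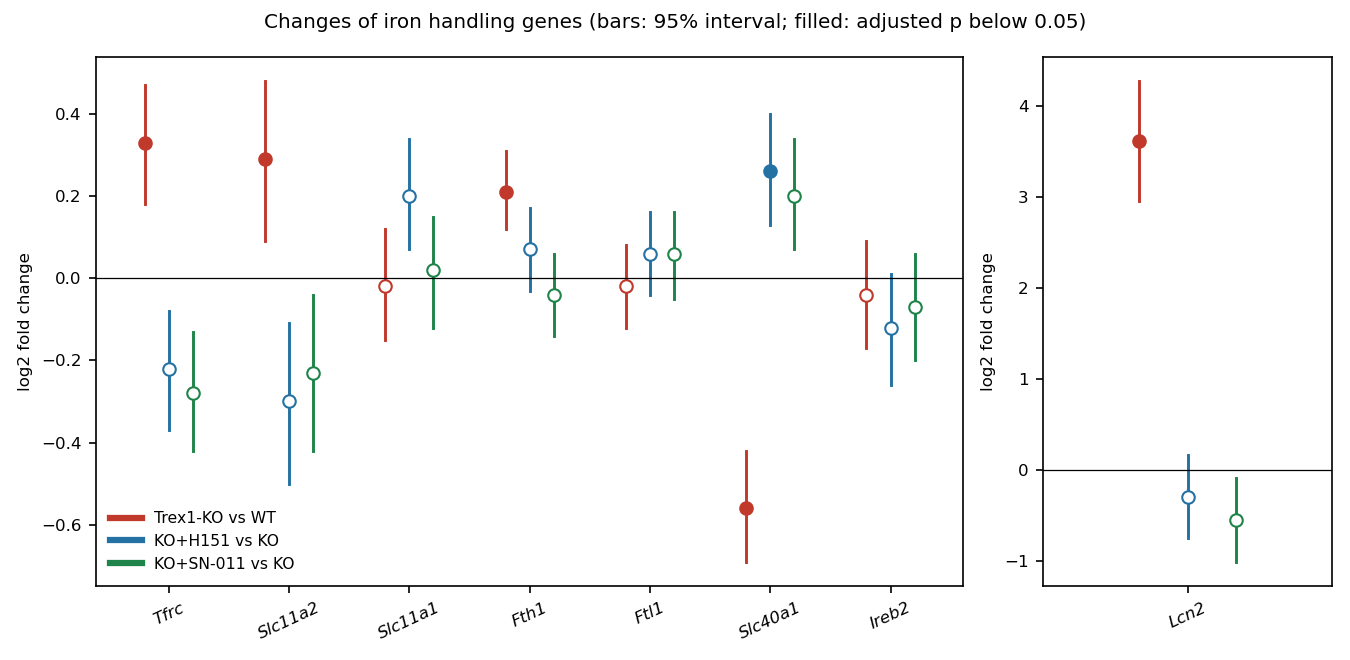
Log2 fold change of the 8 iron handling genes (vertical axes) for Trex1-KO against WT, KO+H151 against KO and KO+SN-011 against KO, with 95% intervals as bars and Lcn2 on an axis of its own. Filled points had an edgeR adjusted p under 0.05. Filled points are Tfrc, Slc11a2, Fth1, Slc40a1 and Lcn2 in the first comparison and Slc40a1 with H151. All 3 comparisons share the Trex1-KO libraries, so their signs are not independent.

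Levels of different genes were compared only as CPM per kilobase. Over the whole exonic length of each gene, WT BMDMs held 2639 ± 14.7 CPM per kilobase of Ftl1 and 1365 ± 12.8 of Fth1 (SD, n = 2). Over the length of the first-listed coding transcript the order turned, with 5098 ± 47.7 CPM per kilobase of Fth1 and 3654 ± 20.3 of Ftl1, so the order of the ferritin chains cannot be given. Slc11a1 and Slc40a1 came next, at 91.9 ± 1.36 and 69.3 ± 3.97 CPM per kilobase of exonic length, and this order also turned with the transcript length (147 ± 2.18 and 185 ± 10.6). Tfrc lay at 22.0 ± 0.524, Ireb2 at 11.7 ± 0.514 and Slc11a2 at 10.6 ± 1.48, of which the last pair did not differ beyond their spread. Lcn2 was the lowest, at 0.255 ± 0.00412.

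The other genes of iron and heme metabolism were described by 7 lists of 55 genes with an identifier, of which 44 were tested. In Trex1-KO against WT, 4 of the 44 rose and 6 fell, or 10 of 44 beside the 16.4% of all tested genes, with a median log2 fold change of -0.11 beside -0.002. The split depended on the scaling: together with the 9 tested acute-phase genes described further on, 9 rose and 6 fell with TMM factors, and 9 rose and 12 fell with total counts. Among 7 tested genes of iron uptake and reduction 2 rose. Steap3, the ferrireductase that works beside the transferrin receptor in endosomes, rose from 18.7 ± 1.30 to 32.4 ± 2.59 CPM (SD, n = 2), or by 0.79 ± 0.10 on the log2 scale (SE, edgeR adjusted p = 0.000103). Lrp1, a scavenger receptor that takes up heme bound to hemopexin, rose from 1077 ± 23.9 to 1309 ± 39.9 CPM (edgeR adjusted p = 0.00313). Steap3 was also higher than in WT with H151 and with SN-011, by 0.67 and 0.61 on the log2 scale (edgeR adjusted p = 0.000652 and 0.00136).

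Among 9 tested genes of heme uptake, export and breakdown, 2 rose and 3 fell in Trex1-KO. Hmox1, the inducible heme oxygenase that frees iron from heme, fell from 471 ± 14.3 to 391 ± 9.14 CPM (SD, n = 2). Its log2 fold change, -0.27 ± 0.06 (SE), was called at an edgeR adjusted p of 0.00636, and missed the threshold without WT replicate 2 (adjusted p = 0.0544). Hmox2, the constitutive heme oxygenase, rose from 112 ± 3.22 to 140.2 ± 1.59 CPM (edgeR adjusted p = 0.00183), and Flvcr1, a heme exporter, rose from 60.4 ± 4.36 to 76.5 ± 4.24 CPM (edgeR adjusted p = 0.00551). Flvcr1 was not called without WT replicate 1 (adjusted p = 0.105) or without Trex1-KO replicate 1 (0.0775).

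Slc48a1, which moves heme out of the phagolysosome, fell from 281 ± 4.31 to 245 ± 4.36 CPM (edgeR adjusted p = 0.0211), a call that was lost when any 1 of its 4 libraries was left out (adjusted p between 0.0562 and 0.112). Hp, which encodes the hemoglobin scavenger haptoglobin, fell from 6.80 ± 0.796 to 2.08 ± 0.598 CPM, with a log2 fold change of -1.69 ± 0.31 (SE) and an edgeR adjusted p of 0.00186. Hp is the gene with the largest fall among the 44.

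In heme synthesis 1 of 8 tested genes fell, Alas1, the first enzyme of the pathway, from 54.1 ± 0.811 to 39.6 ± 2.43 CPM (SD, n = 2, log2 fold change -0.45, edgeR adjusted p = 0.00300). Among 8 tested genes of mitochondrial iron and iron-sulfur clusters 2 fell. Iscu, the scaffold on which clusters are built, fell from 65.8 ± 3.80 to 51.4 ± 5.26 CPM (edgeR adjusted p = 0.0137), and Slc25a37, a mitochondrial iron importer, fell from 138 ± 2.71 to 118 ± 1.43 CPM (edgeR adjusted p = 0.0273). Iscu was lost without WT replicate 2 (adjusted p = 0.126) or without Trex1-KO replicate 1 (0.126), and Slc25a37 with any 1 of its 4 libraries left out (0.0654 to 0.135). Of iron storage and chaperone genes 0 of 5 were called in Trex1-KO by edgeR, and of iron sensing genes 0 of 5, each with 1 at an unadjusted p under 0.05. DESeq2 also called 0 in either list, and the exact test called 1 sensing gene, Slc22a17, which encodes a receptor of lipocalin 2 (5.36 ± 0.186 CPM in WT and 3.24 ± 0.637 CPM on loss of Trex1, log2 difference -0.72, edgeR adjusted p = 0.0517). Among them, Aco1, which encodes the other iron regulatory protein, held 80.7 ± 0.534 CPM in WT cells against 79.9 ± 3.99 CPM in Trex1-KO, and Fbxl5, the iron sensor that marks Ireb2 protein for decay, held 66.7 ± 0.145 and 68.4 ± 0.383 CPM. Of iron export and hepcidin genes 0 of 2 were called, with 0 at an unadjusted p under 0.05 and 0 by DESeq2 or the exact test.

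**Figure D5:**
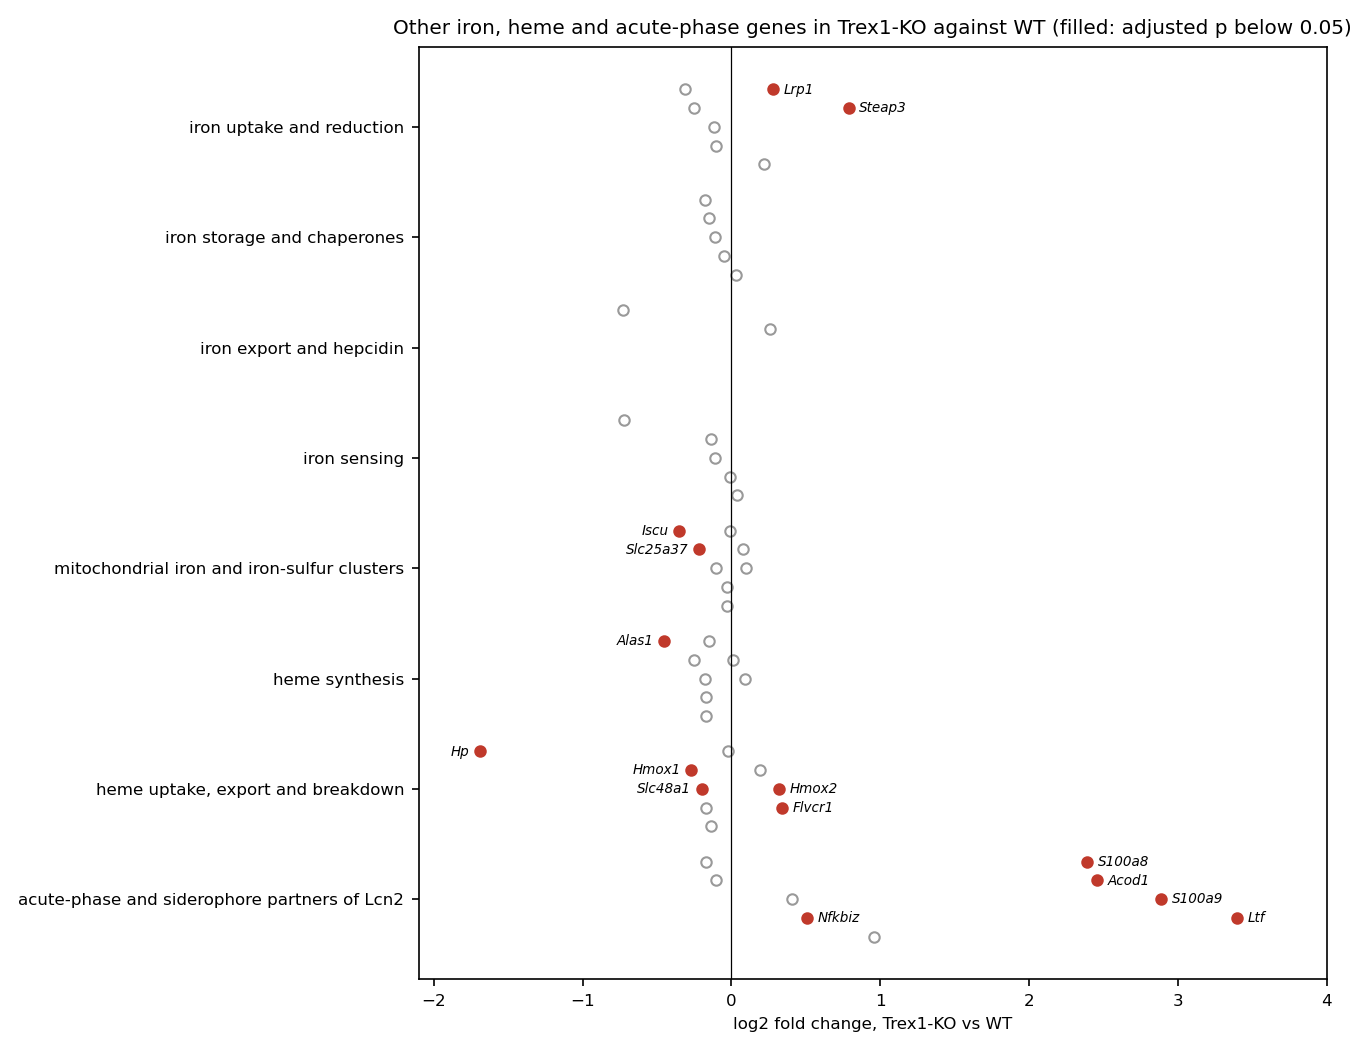
Log2 fold change (horizontal axis) of each tested gene of the other iron, heme and acute-phase lists in Trex1-KO against WT BMDMs. Points are genes, filled and named where the edgeR adjusted p was under 0.05. Steap3 (0.79) and the 5 named acute-phase genes lie to the right, and Hp (-1.69) lies farthest to the left.

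Each antagonist against Trex1-KO gave 2 calls among the 44 genes, beside 2.23% of all tested genes for H151 and 2.33% for SN-011. H151 against Trex1-KO raised Hmox1 from 391 ± 9.14 to 472 ± 21.9 CPM (SD, n = 2, log2 fold change 0.27, edgeR adjusted p = 0.0289) and lowered Hmox2 from 140.2 ± 1.59 to 115 ± 2.57 CPM (-0.28, edgeR adjusted p = 0.0192). Both calls were lost in a fit of only the 2 groups (adjusted p = 0.104 and 0.0914), without Trex1-KO replicate 1 (0.0854 and 0.130), without Trex1-KO replicate 2 (0.199 and 0.0941) and without H151 replicate 1 (0.160 and 0.116). SN-011 against Trex1-KO lowered Cp, the ferroxidase ceruloplasmin that assists ferroportin, from 58.9 ± 2.47 to 37.5 ± 4.63 CPM (-0.66, edgeR adjusted p = 0.0396), and Hif1a, an oxygen-sensing transcription factor, from 158 ± 3.58 to 127 ± 0.529 CPM (-0.31, edgeR adjusted p = 0.0321). Both of these were lost when any 1 of the 4 libraries was left out (adjusted p from 0.0638 to 0.461 for Cp and from 0.0707 to 0.293 for Hif1a) and with total counts only (0.0546 and 0.0658). For H151 against Trex1-KO the Cp difference was -0.62, which lay next to the threshold (adjusted p = 0.0600) and passed with DESeq2 (0.00957), the exact test (0.00715), the replicate block (0.0153), only the 2 groups (0.0305), no filter (2.43e-08) and without H151 replicate 1 (0.0161), and that of Hif1a -0.03 (edgeR adjusted p = 0.975).

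Among 9 tested acute-phase and siderophore partners of Lcn2, 5 rose in Trex1-KO, beside 9.27% of all tested genes, and 2 fell with H151 and 1 with SN-011, beside 1.84% and 2.22%. Of the 5 that rose, S100a8, S100a9 and Ltf (lactoferrin, a protein that binds iron) are also on the neutrophil list, and they were not called with either antagonist against Trex1-KO. The other two, Acod1 and Nfkbiz, came down with H151. Acod1, the enzyme that makes itaconate in activated macrophages, was at 7.66 ± 8.43, 41.4 ± 3.69, 5.48 ± 0.433 and 2.83 ± 0.0342 CPM in WT, Trex1-KO, H151 and SN-011 (SD, n = 2). Its fall was called with H151 (edgeR adjusted p = 0.00290) and with SN-011 (edgeR adjusted p = 0.000641), while DESeq2 did not call its rise in Trex1-KO (adjusted p = 0.0662) or its fall with H151 (0.0573). Nfkbiz, which encodes a nuclear cofactor known to be needed for Lcn2 induction, was at 45.5 ± 5.45, 64.6 ± 1.12, 46.3 ± 1.41 and 51.1 ± 2.12 CPM in the same order. Its rise (edgeR adjusted p = 0.000995) and its fall with H151 (edgeR adjusted p = 0.00766) were called, the latter not without Trex1-KO replicate 2 (log2 difference -0.46). The difference of Nfkbiz with SN-011 was not called by edgeR (adjusted p = 0.0629). It passed with the exact test (0.0187), the replicate block (0.0478), only the 2 groups (0.0234) and no filter on low counts (0.0108). For SN-011 against Trex1-KO, DESeq2 called 2 of the 9 genes lower (Acod1 and Il1b) and the exact test 4 (Acod1, Nfkbiz, Saa3 and Il1b). Saa3, an acute-phase protein, was at 9.40 ± 12.4, 18.0 ± 5.76, 2.54 ± 1.63 and 1.58 ± 0.558 CPM in the same order of groups, with 18.2 and 0.610 CPM in the WT libraries, and edgeR did not call it with H151 (adjusted p = 0.143) or SN-011 (0.0629). Il1b, a cytokine of inflammation, was at 12.6 ± 5.78, 16.6 ± 3.75, 9.08 ± 1.44 and 8.34 ± 2.25 CPM, and edgeR did not call it either (adjusted p = 0.185 and 0.0873). The median log2 fold change of these 9 genes was 0.96 in Trex1-KO against WT, -0.17 with H151 and -0.14 with SN-011 against Trex1-KO.

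For each of the 5 genes called in Trex1-KO, the genes most like it over the 8 libraries were found among 10660 genes, as those with the smallest root mean square (RMS) difference of centred log2 CPM. For Slc40a1 these were Rxra, a nuclear receptor (RMS difference 0.0455, with means of 220.2, 155, 176 and 165 CPM in WT, Trex1-KO, H151 and SN-011), and Rab23 (0.0540). Lcn2 was nearest to Gm1966 (0.167, with means of 7.70, 79.2, 62.0 and 62.7 CPM) and to Ngp, a neutrophil granule gene (0.328, with means of 1.62, 18.9, 20.1 and 19.3 CPM). The nearest genes were Ranbp2 (0.0439) and Smchd1 (0.0456) for Tfrc, Tbc1d9 (0.0271) and Nmt1 (0.0273) for Fth1, and Traf2 (0.0358) and Cdkn1a (0.0524) for Slc11a2. With 8 libraries in 4 groups, such likeness is a description of the group means and of shared depth.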

How the data were processed

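Libraries were grouped by their titles, and no library was left out. Paired-end reads were trimmed with Trimmomatic and aligned with HISAT2 to mm10. The study's methods name featureCounts and the submitters' processing notes HTSeq as the counter. Tool versions, the annotation release and the strand setting are not given in the sources used here. The authors deposited raw counts of uniquely mapped read pairs per Ensembl gene, with no normalization. Genes fully covered by the exons of another counted gene were checked: counts above 0 were found for 1 of 372 where that gene was on the other strand and for 3 of 489 where it was on the same strand. Reads in overlapping exons were thus, with few exceptions, not counted, whatever the strand, so values of genes with overlaps are too low.

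Symbols, positions and transcripts were taken from GENCODE mouse release M21 (GRCm38), which held 54495 of 54532 identifiers. Genes were kept with filterByExpr (minimum count of 10, minimum total of 15). All 8 libraries entered 1 quasi-likelihood fit in edgeR 4.0.16 (R 4.3.3) with TMM factors and 1 mean per group, and p-values were adjusted over all 14591 tested genes by Benjamini-Hochberg. The shared biological coefficient of variation was 0.0656. Standard errors and 95% intervals were derived from the F statistic and are approximate. Alternatives were DESeq2 1.42.0, total counts, other filters, the exact test, fits of 2 groups, the replicate block and leaving out each library. The fit was also run on simulated counts, and no outcome of that run is used here. Read pairs carry no molecular identifiers, so the upper limit given for 0 counts (3 counts) covers counting error only.

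The genes and lists were chosen with earlier results of these data known. Named genes are the 8 iron handling genes, the list genes called in Trex1-KO against WT or for an antagonist against Trex1-KO (up to 4 per list and comparison), and the 2 genes most like each gene called. Slc48a1, the fifth called gene of its list, and Saa3, Il1b, Cebpb, Cebpd, Aco1, Fbxl5, Epas1, Slc22a17, Ftl1-ps1 and marker genes were named after their values were seen. Tf, of the uptake list, was not analysed here.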

Additional observations from a re-analysis of the deposited data

How the results depend on the processing

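Of 576 log2 fold changes of the 8 iron handling genes under an alternative, 539 stayed on the same side of the threshold, 21 lost the call and 16 gained it. None of the 144 values of called differences turned in sign, and 24 of the 432 values of differences that were not called did, those of Ftl1 and Slc11a1 in Trex1-KO against WT among them. Of 359 values of the other named genes, 311 stayed, 38 lost the call and 10 gained it. Library sizes over all genes and transcript lengths were alternatives added after the data had been seen. In Trex1-KO against WT, total counts only gave 3 called iron handling genes in place of 5, and leaving out 1 library gave 3 to 4 (3 without Trex1-KO replicate 1), and 11 to 15 calls in the wider lists in place of 15, over 54 to 57 genes that then passed the filter. Total counts gave 21 calls in these lists (9 higher and 12 lower, in place of 9 and 6). For H151 against Trex1-KO the count of 1 became 2 with no filter, 0 with a stricter filter, 0 with only the 2 groups, 0 with library sizes over all genes, and 0 to 1 without 1 library (0 without Trex1-KO replicate 1), and the wider lists gave 9 with no filter and 1 to 5 without 1 library in place of 4. For SN-011 against Trex1-KO the count of 0 became 2 with no filter and 1 each with a stricter filter, DESeq2, the exact test, only the 2 groups, library sizes over all genes and without SN-011 replicate 2 (range without 1 library 0 to 1), each time Tfrc or Tfrc with Slc40a1. The wider lists gave 1 with total counts, 6 each with no filter, the exact test and only the 2 groups, and 1 to 3 without 1 library, in place of 3. For SN-011 against H151, leaving out 1 library gave 0 to 1 iron handling genes (1 without H151 replicate 2, Slc11a1) and 0 to 1 of the wider lists, which gave 2 with no filter. Against WT, leaving out 1 library gave 2 to 4 calls for H151 and 2 to 2 for SN-011, in place of 3 each. Where no value shows the reason, the cause was not tested.

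The labels do not say what the replicate numbers stand for, and deviations of same-numbered libraries correlated at 0.19 between Trex1-KO and H151 and between -0.02 and 0.06 for the other pairs of groups. With 2 libraries per group this does not settle whether the numbers pair the samples, and the fit without the block was kept. With the replicate number as a block, SN-011 against Trex1-KO gave 2 called iron handling genes (Tfrc and Slc40a1) and 5 of the wider lists, and Slc11a1 was called higher with H151 than in WT (adjusted p = 0.0441). With 2 libraries per group, Lcn2 in WT rested on 9 and 10 counts.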
